A study of Mus musculus with 4 samples.

Results

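The metallothioneins and the proteins that carry zinc across membranes set the amount of free zinc in a cell. The genes described are 8 listed symbols, found by their Ensembl identifiers among the 47069 genes of the deposited files: the metallothionein genes Mt1, Mt2 and Mt3, the zinc sensor gene Mtf1, the exporter gene Slc30a1 and the importer genes Slc39a10, Slc39a6 and Slc39a14. They were followed through 4 RNA sequencing libraries of HT22 cells, an immortalised mouse hippocampal line whose strain is given as C57BL/6. All cells were infected with an adenovirus 2 h after seeding, so no library came from uninfected cells. The groups, with 1 library each, were the virus labelled as a knockdown of the long noncoding RNA AK046375 with oxygen-glucose deprivation (OGD, 6 h in glucose-free medium under nitrogen), the control virus with OGD, the virus labelled knockdown in normal culture, and the control virus in normal culture. The library labels name an adenoviral knockdown, whereas the series title and design name overexpression from a lentivirus. AK046375 itself was not analysed here, which leaves the direction of the intervention unchecked, and "labelled knockdown" is the wording of the label.

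Metallothioneins are small cysteine-rich proteins that bind zinc and copper and are known to protect cells from metal excess and oxidants. In mammals the transcription factor MTF-1, the product of Mtf1, senses free zinc and binds short metal response elements (MREs) near the start of its target genes. Mt1, Mt2 and Slc30a1 are textbook targets that MTF-1 induces, and in mouse cells it is known to repress Slc39a10. Proteins of the Slc30 (ZnT) family move zinc out of the cytosol, and those of the Slc39 (ZIP) family move it in. In the brain, zinc is stored in the synaptic vesicles of some neurons, and zinc set free during ischaemia is a known source of neuronal injury.

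Positions are those of GENCODE M21 on GRCm38. Mt3 (94152607 to 94154146), Mt2 (94172664 to 94173568) and Mt1 (94179082 to 94180327) follow each other on the plus strand of chromosome 8, and Slc30a1 is on the plus strand of chromosome 1 (191906767 to 191913247). Mtf1 is on the plus strand of chromosome 4 (124802104 to 124849800), Slc39a10 on the minus strand of chromosome 1 (46807544 to 46892852) and Slc39a14 on the minus strand of chromosome 14 (70303469 to 70351425). The start regions of 4 members are shown because Mt1, Mt2 and Slc30a1 are the members that were past 2-fold higher in OGD under both viruses, while Mt3, the neighbour, was near 0 in every library. Each window is 300 bases of RefSeq sequence (GRCm38.p6), from 250 before the annotated start to 50 after, plus strand, 5′ to 3′. Capitals mark matches to the MRE core, searched as TGCACNC and TGCGCNC on both strands.
Mt1, chr8:94178839-94179138: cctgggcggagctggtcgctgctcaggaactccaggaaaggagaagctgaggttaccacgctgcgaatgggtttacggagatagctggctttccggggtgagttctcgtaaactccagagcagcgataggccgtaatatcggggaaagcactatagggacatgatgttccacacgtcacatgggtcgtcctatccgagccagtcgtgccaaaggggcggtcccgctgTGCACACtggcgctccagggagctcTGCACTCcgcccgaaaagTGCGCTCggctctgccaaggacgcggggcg
Mt2, chr8:94172368-94172667: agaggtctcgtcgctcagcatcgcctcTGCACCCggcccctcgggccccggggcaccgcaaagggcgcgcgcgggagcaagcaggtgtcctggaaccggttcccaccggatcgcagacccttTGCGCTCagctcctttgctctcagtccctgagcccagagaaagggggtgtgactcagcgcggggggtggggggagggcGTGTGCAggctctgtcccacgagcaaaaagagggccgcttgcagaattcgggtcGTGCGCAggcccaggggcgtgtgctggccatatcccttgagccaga
Slc30a1, chr1:191906531-191906830: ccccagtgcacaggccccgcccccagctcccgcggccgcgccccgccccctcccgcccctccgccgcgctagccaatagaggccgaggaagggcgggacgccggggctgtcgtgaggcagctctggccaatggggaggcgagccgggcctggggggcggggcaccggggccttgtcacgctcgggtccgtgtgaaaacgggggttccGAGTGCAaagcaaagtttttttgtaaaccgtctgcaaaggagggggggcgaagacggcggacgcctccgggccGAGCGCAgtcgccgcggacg
Mt3, chr8:94152357-94152656: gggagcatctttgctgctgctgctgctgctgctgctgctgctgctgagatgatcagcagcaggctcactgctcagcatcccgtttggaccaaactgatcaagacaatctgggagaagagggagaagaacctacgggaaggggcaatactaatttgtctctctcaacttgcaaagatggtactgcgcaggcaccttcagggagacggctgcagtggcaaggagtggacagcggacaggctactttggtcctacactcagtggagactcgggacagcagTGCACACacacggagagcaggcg

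Mt1 held 3 MRE matches, Mt2 held 4, Slc30a1 held 2 and Mt3 held 1. Of all 32851 promoter windows of this length, 25.7% held at least 1 match, 7.11% at least 2, 1.97% at least 3 and 0.517% at least 4. The Mt1 matches began at -23, 2 and 20 relative to the RefSeq start, those of Mt2 at -223, -128, -50 and 4, those of Slc30a1 at -43 and 30, and that of Mt3 at 27. GENCODE starts lie at -7, 122 and 152 relative to the RefSeq start for Mt1, and at 46 and 242 for Mt2. They lie at -14 and 475 for Slc30a1 and at 0 and 139 for Mt3, so positions depend on the annotation. Match counts may depend on it too, since no windows were placed at the other starts. The RefSeq windows of Mtf1 and of both annotated starts of Slc39a10 held 0 matches. For Slc39a10 the nearest GENCODE start is at -428 relative to one RefSeq start and at 32924 relative to the other, which lies outside the GENCODE gene, so the match count for Slc39a10 depends on the annotation. Slc39a6 and Slc39a14 had no window here. The hypoxia response core, searched as ACGTG and GCGTG on both strands, matched 2 times in Mt1, 2 times in Mt2 and 1 time in Slc30a1, against 43.8% of all windows with at least 1 match and 20.6% with at least 2. The antioxidant response core TGACNNNGC, searched on both strands, matched 1 time each in Mt2 and Slc30a1, where 12.4% of windows held one, and the heat shock core GAANNTTC matched in none of the member windows, where 7.86% held one. In Mt2 the hypoxia core at -52 overlapped the MRE at -50, and in Slc30a1 the antioxidant core overlapped the hypoxia core. A match is a string of letters and was not tested as a binding site.

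**Figure D1:**
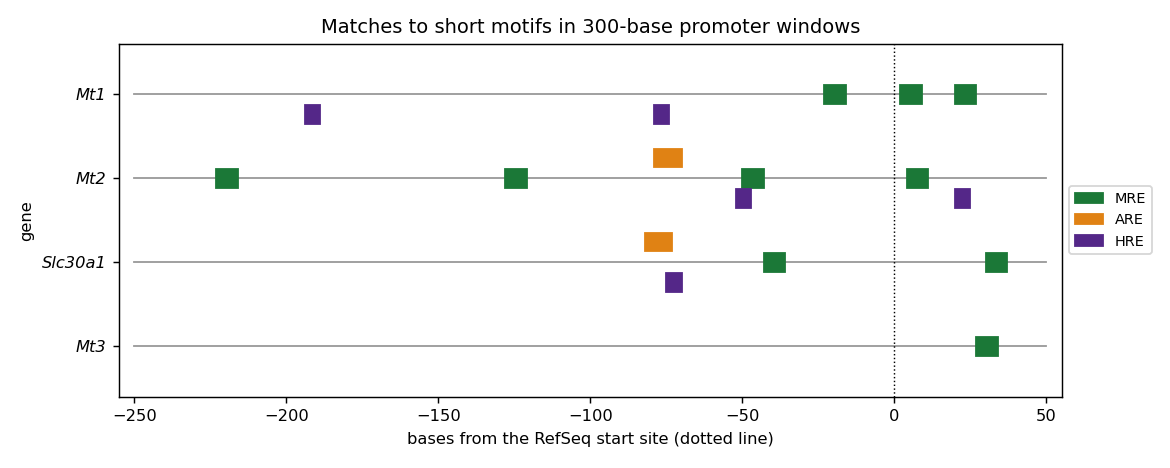
Start regions of Mt1, Mt2, Slc30a1 and Mt3, drawn to scale as distance in bases from the RefSeq start (dotted line), with boxes for matches to the metal (MRE), antioxidant (ARE) and hypoxia (HRE) response cores. Mt1, Mt2 and Slc30a1 carry 3, 4 and 2 MRE matches and Mt3 carries 1.

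Levels are given as FPKM, fragments per length of transcript, scaled to the total counted in the library. Mt1 stood at 9339 FPKM in the labelled-knockdown OGD library, 20427 in the control OGD library, 1829 in the labelled-knockdown normal library and 789 in the control normal library. Mt2 stood at 10788 FPKM in the labelled-knockdown OGD library, 24459 in the control OGD library, 1947 in the labelled-knockdown normal library and 624 in the control normal library. Both genes were highest in the control OGD library and lowest in the control normal library, with both labelled-knockdown libraries between. Among all genes, Mt2 ranked 2 in the labelled-knockdown OGD library, 1 in the control OGD library, 128 in the labelled-knockdown normal library and 287 in the control normal library. Mt1 and Mt2 together took 0.699% of counts in the labelled-knockdown OGD library, 1.56% in the control OGD library, 0.13% in the labelled-knockdown normal library and 0.0493% in the control normal library. Mt3, the metallothionein best known from brain, had 2 counts in the labelled-knockdown OGD library, 3 in the control OGD library and 0 in both normal libraries. These are at or under 3 counts, which here equal 0.323 to 0.386 FPKM, so no fold is given for Mt3 and no difference was detectable at this depth.

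Mtf1 was at 6.25 FPKM in the labelled-knockdown OGD library, 4.77 in the control OGD library, 4.21 in the labelled-knockdown normal library and 3.48 in the control normal library. The sensor gene thus varied far less than the metallothionein genes. Slc30a1, whose product ZnT1 exports zinc at the plasma membrane, was at 19.5 FPKM in the labelled-knockdown OGD library, 10.1 in the control OGD library, 0.46 in the labelled-knockdown normal library and 0.45 in the control normal library. Its normal-culture values rest on 54 counts with the labelled-knockdown virus and 49 with the control virus, and both OGD libraries were far above both normal ones.

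Slc39a10, which encodes the plasma membrane importer ZIP10, was at 4.8 FPKM in the labelled-knockdown OGD library, 0.67 in the control OGD library, 1.27 in the labelled-knockdown normal library and 7.47 in the control normal library. Slc39a6, which encodes its close relative ZIP6, was at 45.6 FPKM in the labelled-knockdown OGD library, 12.1 in the control OGD library, 4.26 in the labelled-knockdown normal library and 7.43 in the control normal library. Slc39a14, which encodes ZIP14, an importer of zinc that also carries iron and manganese, was at 28.65 FPKM in the labelled-knockdown OGD library, 10.8 in the control OGD library, 8.09 in the labelled-knockdown normal library and 19.5 in the control normal library. The importers did not share an order: Slc39a10 was highest in the control normal library, and Slc39a6 and Slc39a14 were highest in the labelled-knockdown OGD library. Within each library Mt1 and Mt2 were the highest members, and Mt3 was the lowest in all 4. Slc30a1 had 4 members above it in both OGD libraries and was next to last in both normal libraries.

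**Figure D2:**
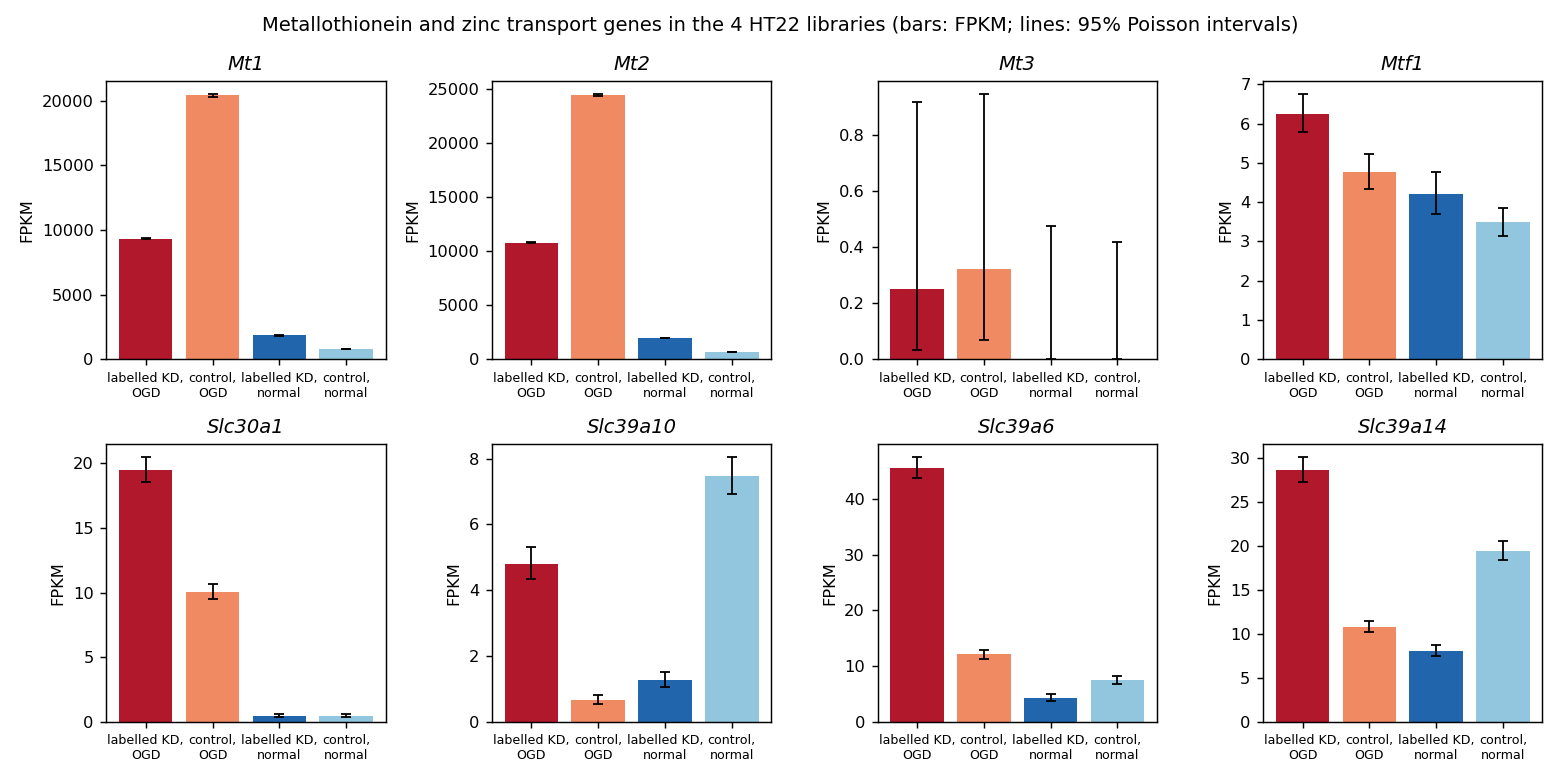
FPKM of the 8 members in each of the 4 libraries, as bars on a linear axis from 0 with its own scale per gene, with exact 95% Poisson intervals from the counts as lines (counting error only, 1 library per group; KD, knockdown). Mt1 and Mt2 reach 9339 to 24459 FPKM in the OGD libraries and 624 to 1947 in the normal ones, and Slc30a1 is at 10.1 to 19.5 FPKM in OGD and 0.45 to 0.46 in normal culture.

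The first question was how the members differed between OGD and normal culture within a virus. With 1 library per group no test was made: brackets hold exact 95% counting intervals of a fold between 2 libraries, and a gene was called higher or lower once it reached 2-fold on the log2 scale of FPKM + 1. These calls are sizes, with no replicate check.

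With the virus labelled knockdown, Slc30a1 was 42.5-fold higher in OGD [32.4 to 56.8], Slc39a6 10.7-fold higher [9.23 to 12.5], Mt2 5.54-fold [5.45 to 5.63] and Mt1 5.11-fold [5.01 to 5.20] higher. The ratio of Slc30a1 was smaller by counts, as given below with the effective lengths. Slc39a10 was 3.78-fold higher [3.09 to 4.64] and Slc39a14 3.54-fold higher [3.22 to 3.90]. Mtf1 was 1.49-fold higher [1.28 to 1.73]. Of the 8 members 6 were higher and 0 lower, where 33.4% of the 12256 genes averaging 1 FPKM or more were higher and 20.9% lower. The members' median log2 ratio was 2.03, against 0.32 over all these genes. Counts and medians of the 8 members, here and below, include Mt3, which averaged 0.14 FPKM. The all-gene values leave out genes averaging under 1 FPKM.

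With the control virus, the level in OGD was higher 39.2-fold for Mt2 [38.2 to 40.2], 25.9-fold for Mt1 [25.3 to 26.5] and 22.6-fold for Slc30a1 [17.0 to 30.7]. The known MTF-1-repressed gene Slc39a10 was 11.2-fold lower [8.99 to 14.1]. By counts this decrease was smaller, as given below with the effective lengths. Slc39a14 was 1.80-fold lower [1.66 to 1.96], Slc39a6 1.63-fold higher [1.44 to 1.83] and Mtf1 1.37-fold higher [1.19 to 1.58], all within 2-fold. Slc39a6 passed 2-fold under 4 of 7 alternatives, at log2 ratios of 1.15 with TMM, 1.16 with median of ratios, 1.26 with upper quartile and 1.05 after trend removal, and Slc39a14 was at -0.14 with upper quartile. Slc39a10 and Slc39a14 were thus opposite in direction to the comparison with the virus labelled knockdown, while Mt1, Mt2 and Slc30a1 were higher in both. Of the 8 members, 3 were higher and 1 was lower, where 11.6% of all genes compared were higher and 24.3% lower, and the medians were 0.52 for the members and -0.25 for all genes.

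The second question was how the labelled knockdown differed from its control within a culture condition. In OGD, Mt2 was 2.27-fold lower [2.25 to 2.28] and Mt1 2.19-fold lower [2.17 to 2.21] in the labelled-knockdown library than in its control. Slc39a10 was 7.20-fold higher [5.72 to 9.16], Slc39a6 3.78-fold higher [3.50 to 4.09] and Slc39a14 2.65-fold higher [2.45 to 2.87], while Slc30a1 was 1.94-fold higher [1.79 to 2.09] in FPKM and within 2-fold on the log2 scale of FPKM + 1 (0.89). After removal of the trend with transcript length described below, the log2 ratio of Slc30a1 was 0.11. Of the 8 members 3 were higher and 2 lower, where 16.2% of all genes compared were higher and 2.28% lower, and the medians were 0.61 for the members and 0.26 for all genes. Mt1 and Mt2 were thus among the small share of genes that were lower.

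In normal culture the directions of Mt1, Mt2 and the 3 importers were opposite to those in OGD. Mt2 was 3.12-fold [3.03 to 3.22] and Mt1 2.32-fold [2.25 to 2.39] higher in the labelled-knockdown library. Slc39a10 was 5.88-fold lower [4.87 to 7.14], Slc39a14 2.41-fold lower [2.18 to 2.66] and Slc39a6 1.74-fold lower [1.46 to 2.08]. The log2 ratio of Slc39a6 was -0.68 as reported and -0.18 after removal of the trend with transcript length. Slc30a1 had a fold of 1.03 [0.686 to 1.55], an interval that holds 1. Of the 8 members 2 were higher and 2 lower, where 4.67% of all genes compared were higher and 13.9% lower, and the median was 0.00 for the members and -0.27 for all genes.

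The difference between the log2 ratios of the labelled knockdown, OGD minus normal, put both contrasts together. It was -2.82 for Mt2 and -2.34 for Mt1, and 3.70 for Slc39a10, 2.51 for Slc39a6 and 2.50 for Slc39a14. Slc30a1 had a difference of 0.88, which turned to -0.24 with upper-quartile scaling and to -0.52 after removal of the trend with transcript length described below, and Mtf1 had one of 0.11, which ran from -1.21 after trend removal to 1.24 on CPM, so no direction is given for these genes. After trend removal the differences were -1.33 for Mt1, -1.81 for Mt2, 2.34 for Slc39a10, 1.51 for Slc39a6 and 1.17 for Slc39a14, and with upper-quartile scaling that of Slc39a14 was within 2-fold (0.93). Of the 8 members 3 were past 2-fold upward and 2 downward, where 37.4% of all genes compared were upward and 12.7% downward, and the medians were 0.50 for the members and 0.61 for all genes. This balance depended on the scaling: upper-quartile scaling gave 15.1% upward and 26.5% downward with an all-gene median of -0.19, and FPKM rescaled to equal sums gave 53.4% upward and 5.28% downward with a median of 1.12. The member median of 0.50 includes Mt3. As reported and without Mt3, the middle member value was that of Slc30a1 (0.88), above the all-gene median of 0.61.

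**Figure D3:**
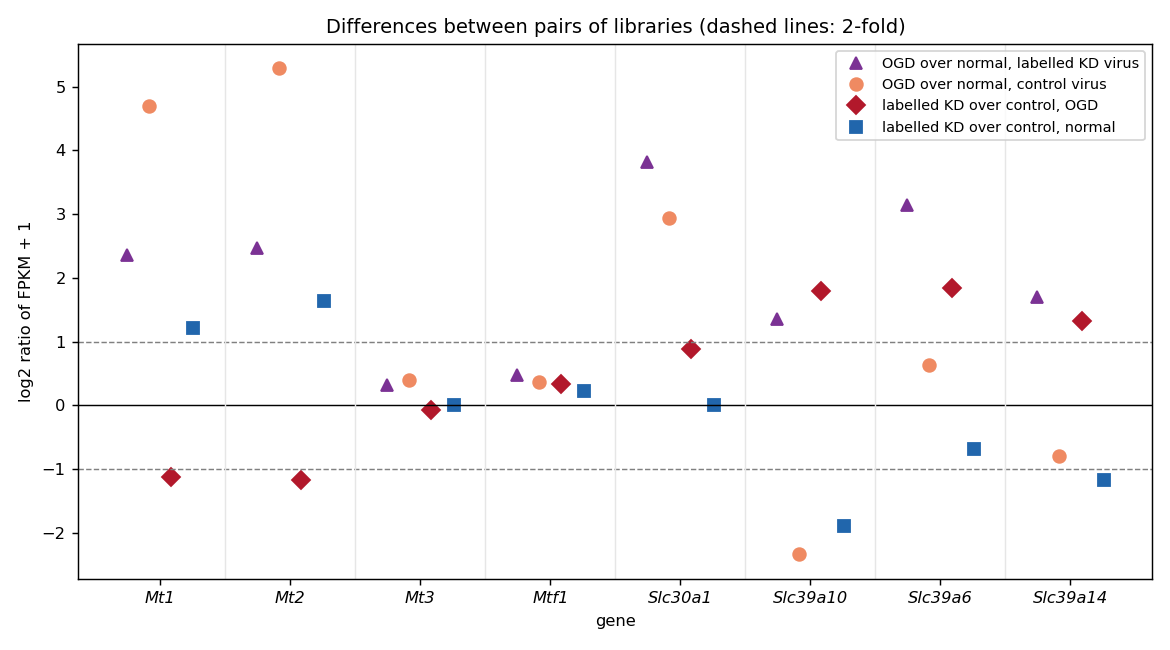
Log2 ratio of FPKM + 1 of each member in the 4 comparisons of 2 libraries, OGD over normal and labelled knockdown (KD) over control, with dashed lines at 2-fold. Mt1 and Mt2 are at -1.13 and -1.18 for the labelled knockdown in OGD and at 1.21 and 1.64 in normal culture, while Slc39a10 lies the other way round, at 1.80 in OGD and -1.90 in normal culture.

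The virus comparisons also moved with transcript length over all genes, and the members differ in length. Mt1 and Mt2, with mean lengths of 540 and 556 nt, fell in the next to shortest of 20 length classes, whose median log2 ratio for the labelled knockdown was -0.52 in OGD and 0.47 in normal culture. Slc39a10, at 4285 nt, fell in a class with medians of 0.72 in OGD and -0.54 in normal culture, and the class of Slc39a14 (3062 nt) had medians of 0.64 in OGD and -0.60 in normal culture. The virus ratios of Mt1, Mt2, Slc39a10, Slc39a6 and Slc39a14 had the sign of their length class in both cultures. With each class median taken off, Mt1 was at -0.61 in OGD and 0.74 in normal culture, Mt2 at -0.66 in OGD and 1.17 in normal culture, Slc39a10 at 1.07 in OGD and -1.36 in normal culture, and Slc39a14 at 0.69 in OGD and -0.57 in normal culture. Slc39a6 was at 1.42 in OGD and -0.18 in normal culture, and Slc30a1 at 0.11 in OGD and 0.53 in normal culture. Over all genes, 7.54% were then higher and 1.75% lower in OGD, and 4.05% higher and 6.35% lower in normal culture. The directions held, while Mt1, Mt2 and Slc39a14 came within 2-fold in OGD, and Mt1 and Slc39a14 in normal culture too. For OGD over normal with the virus labelled knockdown, removing the class median left Slc39a14 at 0.64 and Slc39a10 at 0.18, both within 2-fold, and Mt1 at 3.24, Mt2 at 3.35, Slc30a1 at 2.62 and Slc39a6 at 2.43. For OGD with the control virus the class medians of Mt1, Slc30a1 and Slc39a10 were 0.08, -0.19 and -0.22, beside ratios of 4.69, 2.93 and -2.34 for those genes.

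Effective lengths, the length over which a fragment could start as averaged over isoforms, entered every fold in FPKM, and for some genes they differed between libraries. Those of Mt1 ran only from 335 to 342 nt and those of Mt2 from 351 to 358 nt. For Mtf1 they were 4552 nt in the labelled-knockdown OGD library, 3320 in the control OGD library, 2434 in the labelled-knockdown normal library and 4060 in the control normal library. Its counts, per library total, were 1.38-fold lower in the labelled-knockdown normal library than in its control, where FPKM was 1.21-fold higher [1.02 to 1.43], so no direction is given for Mtf1 in that comparison. In OGD, Slc39a14 was 1.75-fold higher by counts and 2.65-fold by FPKM, and Slc39a10 5.14-fold by counts and 7.20-fold by FPKM. For OGD over normal, Mtf1 was 2.78-fold higher by counts with the virus labelled knockdown, against 1.49-fold by FPKM, and Slc39a6 was 2.04-fold higher by counts with the control virus, against 1.63-fold by FPKM. With the virus labelled knockdown, the effective length of Slc30a1 was 3481 nt in OGD and 5039 nt in normal culture. Its counts scaled to the library total (CPM) were 67.9 and 2.31. With the control virus, Slc39a10 had effective lengths of 4904 nt in OGD and 3512 nt in normal culture, and CPM of 3.27 and 26.2. Both count ratios were smaller than the FPKM folds given above and lay below their intervals.

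Mt1 and Mt2 can also be set against each other inside a library, where depth cancels. The ratio of Mt1 to Mt2 in FPKM was 0.866 [0.857 to 0.874] in the labelled-knockdown OGD library, 0.835 [0.830 to 0.840] in the control OGD library, 0.939 [0.918 to 0.961] in the labelled-knockdown normal library and 1.26 [1.22 to 1.31] in the control normal library. Mt1 was therefore above Mt2 in the control normal library and below it in the other 3. In their annotated transcripts, the longest run of identical bases shared by Mt1 and Mt2 was 20, and by Mt1 and Mt3 27. Only exact runs were searched, and the read length was not stated in the labels. Whether reads of these related genes were swapped therefore cannot be told.

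The authors' deposited table for OGD lists Mt1 at a log2 fold change of -1.40, Mt2 at -1.45 and Slc39a6 at 1.38 for labelled knockdown over control. The adjusted p-values in the authors' deposited table were 0.643 for Mt1, 0.613 for Mt2 and 0.656 for Slc39a6. For normal culture, the authors' deposited table lists Mt1 at 1.45, Mt2 at 1.88 and Slc39a10 at -1.96, with adjusted p-values of 0.714, 0.660 and 0.642. All 6 adjusted values in the authors' deposited table were above 0.05. The sign of each was that of the FPKM ratio given above. Both come from the same libraries, 1 per group, so the shared sign is no separate check. These tables hold 219 genes for OGD and 1342 for normal culture, and the other members are not among them.

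The members were then set among their families. Of 24 genes of the ZnT and ZIP families in the files, 16 averaged 1 FPKM or more, 6 of 10 ZnT and 10 of 14 ZIP genes. For OGD over normal with the virus labelled knockdown, 9 family genes were higher and 1 was lower (Slc39a1). After removal of the length trend, 4 were higher and 2 lower, where 21.5% of all genes were higher and 20.8% lower. With the control virus, as reported, 1 was higher (Slc30a1) and 2 were lower (Slc39a1 and Slc39a10). Slc30a1, at 0.45 to 0.46 FPKM in normal culture, entered the family counts only through the OGD libraries, where it was higher. For labelled knockdown over control in OGD 4 were higher (Slc30a4, Slc39a6, Slc39a10 and Slc39a14) and 0 lower, and in normal culture 0 were higher and 3 lower (Slc30a9, Slc39a10 and Slc39a14). With TMM, median of ratios or upper-quartile scaling that last count was 1, where 7.69%, 7.20% and 4.77% of all genes were lower. As reported, all-gene shares for OGD over normal were 33.4% higher and 20.9% lower with the virus labelled knockdown. With the control virus they were 11.6% and 24.3%. For labelled knockdown over control they were 16.2% and 2.28% in OGD, and 4.67% and 13.9% in normal culture.

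Slc39a1, which encodes the plasma membrane importer ZIP1, was at 32.3 FPKM in the labelled-knockdown OGD library, 21.4 in the control OGD library, 166 in the labelled-knockdown normal library and 136 in the control normal library. It was lower in OGD under both viruses, 5.14-fold [4.88 to 5.43] with the labelled knockdown and 6.38-fold [6.01 to 6.78] with the control virus, opposite in direction to Slc30a1 in both. Slc30a4, whose product ZnT4 loads zinc into vesicles, was at 18.8 FPKM in the labelled-knockdown OGD library, 3.96 in the control OGD library, 1.4 in the labelled-knockdown normal library and 3.28 in the control normal library. Slc39a7 and Slc39a13, which encode importers of the secretory pathway that release zinc to the cytosol, kept within narrow ranges: Slc39a7 lay between 133 and 163 FPKM and Slc39a13 between 106 and 128. Slc30a5, which encodes a transporter of the early secretory pathway, was at 17 FPKM in the labelled-knockdown OGD library, 9.1 in the control OGD library, 3.29 in the labelled-knockdown normal library and 5.42 in the control normal library. Slc30a3, the transporter that fills synaptic vesicles with zinc, reached at most 1.38 FPKM, and Slc30a8 and Slc39a12 were listed at 0 in all 4 libraries.

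**Figure D4:**
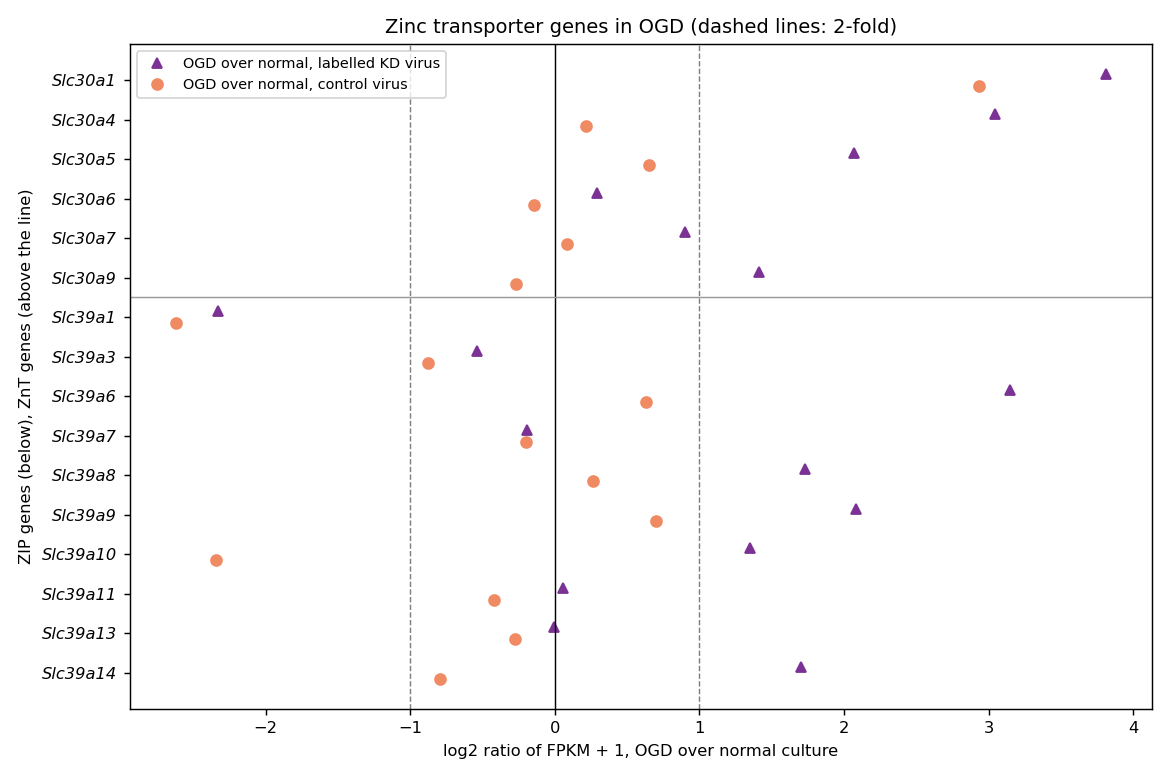
Log2 ratio of FPKM + 1 for OGD over normal culture, of the 16 ZnT and ZIP genes averaging 1 FPKM or more, with triangles for the virus labelled knockdown (KD), circles for the control virus and dashed lines at 2-fold. With the labelled knockdown Slc30a1 (3.81), Slc39a6 (3.15) and Slc30a4 (3.04) lie highest and Slc39a1 (-2.33) lowest, and with the control virus Slc30a1 (2.93) lies highest and Slc39a1 (-2.62) and Slc39a10 (-2.34) lowest.

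Among 10 listed MTF-1 targets, which include Mt1, Mt2, Slc30a1 and Slc39a10, 9 averaged 1 FPKM or more. Slc30a1 is among these only through the OGD libraries. In OGD over normal, 6 were higher and 1 lower with the virus labelled knockdown, where 33.4% of all genes were higher and 20.9% lower, and 5 were higher and 1 lower with the control virus, where these shares were 11.6% and 24.3%. For labelled knockdown over control, 3 were higher and 3 lower in OGD, against 16.2% and 2.28% of all genes, and 3 were higher and 2 lower in normal culture, against 4.67% and 13.9%. Of the 9 genes 4 are members given above, and of the other 5 those called in any comparison were Gclc, Ndrg1 and Selenow. Gclc, which encodes the catalytic subunit of the enzyme that starts glutathione synthesis, was at 113 FPKM in the labelled-knockdown OGD library, 52.9 in the control OGD library, 2.86 in the labelled-knockdown normal library and 4.39 in the control normal library. Ndrg1, a stress-responsive gene also induced by hypoxia, was at 1322 FPKM in the labelled-knockdown OGD library, 656 in the control OGD library, 58.4 in the labelled-knockdown normal library and 152 in the control normal library. Selenow, which encodes selenoprotein W, ran opposite to them, at 128.5 FPKM in the labelled-knockdown OGD library, 288 in the control OGD library, 995 in the labelled-knockdown normal library and 483 in the control normal library. For labelled knockdown over control, Selenow had the signs of Mt1 and Mt2, with log2 ratios of -1.16 in OGD and 1.04 in normal culture. Gclc (1.09 in OGD and -0.48 in normal culture) and Ndrg1 (1.01 in OGD and -1.37 in normal culture) had those of Slc39a10. Selenow is 736 nt long and Gclc 3423 nt, while Ndrg1 ran from 1666 to 2358 nt over the libraries. Over all genes the shortest length class had medians of -0.42 in OGD and 0.33 in normal culture, and the longest 0.87 and -0.48. The part of length in these signs was not tested.

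Metallothioneins also bind copper, and of 11 listed copper-handling genes 10 averaged 1 FPKM or more. In OGD over normal, 4 were higher and 5 lower with the virus labelled knockdown, against 33.4% and 20.9% of all genes, and 0 were higher and 2 lower with the control virus, against 11.6% and 24.3%. For labelled knockdown over control, 3 were higher and 0 lower in OGD, against 16.2% and 2.28% of all genes, and 2 were higher and 1 lower in normal culture, against 4.67% and 13.9%. The counts with the control virus are near the shares over all genes. For OGD over normal with the virus labelled knockdown, the 5 lower genes (Atox1, Ccs, Cox17, Commd1 and Sod1) were 537 to 1057 nt long. The 4 higher (Slc31a1, Atp7a, Steap2 and Steap3) were 2844 to 4342 nt, all as listed in the labelled-knockdown OGD library. All-gene medians there were -0.73 in the shortest length class and 1.46 in the longest. The part of length in this split was not tested. Atp7a, the copper exporter gene, was at 4.56 FPKM in the labelled-knockdown OGD library, 0.19 in the control OGD library, 0.07 in the labelled-knockdown normal library and 0.67 in the control normal library. It averaged 1.37 FPKM and entered the count only through the labelled-knockdown OGD library. Cox17, a small chaperone gene that carries copper to cytochrome oxidase, was at 94.5 FPKM in the labelled-knockdown OGD library, 179 in the control OGD library, 396 in the labelled-knockdown normal library and 157 in the control normal library. Neither had the order of Mt1 and Mt2.

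Genes with a pattern most like that of Mt1 and Mt2 were ranked by the Euclidean distance of centred log2(FPKM + 1) over the 4 libraries, among 8744 genes with at least 5 FPKM in at least 1 library. The nearest was Gsta1, which encodes a glutathione transferase, at a distance of 0.388. It stood at 26.7 FPKM in the labelled-knockdown OGD library, 47.5 in the control OGD library, 3.22 in the labelled-knockdown normal library and 0.33 in the control normal library. Close paralogs of Gsta1 exist, so its counts are uncertain. The next were Gnl3 at 0.882, which encodes a nucleolar GTP-binding protein, Dpp7 at 0.971, which encodes a dipeptidyl peptidase, and Tpr at 1.23, a nuclear pore gene. Nagpa at 1.30, Cfap58 at 1.31, Aloxe3 at 1.32 and Hpx at 1.35 completed the nearest 8. Nearest to Slc30a1 among 8745 genes were Zzz3 at 0.265, Vcan at 0.325, Impact at 0.369, Lrpprc at 0.371 and Topors at 0.410. With 4 libraries such likeness is a description and many genes can share an order.

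Library totals ran from 23327743 to 27539845 expected counts, and 11429 to 12330 genes had at least 1 FPKM. Scaling moved the medians over all genes. For labelled knockdown over control the median was 0.26 in OGD, with a range of -0.15 to 0.51 over other scalings, and -0.27 in normal culture, with a range of -0.51 to 0.10. In OGD, rescaling FPKM to equal sums gave 25.3% of genes higher and 0.808% lower, and upper-quartile scaling gave 6.81% higher and 8.89% lower. In normal culture, rescaling FPKM gave 1.47% higher and 24.0% lower, and upper-quartile scaling gave 11.6% higher and 4.77% lower. Relative to the medians as reported, Mt1 was at -1.39 and Mt2 at -1.44 in OGD, and Mt1 was at 1.49 and Mt2 at 1.91 in normal culture. With FPKM rescaled to equal sums, Mt1 and Mt2 came within 2-fold for the labelled knockdown in OGD (-0.83 and -0.88), and Mt1 did so in normal culture (0.89). Slc39a14 came within 2-fold with upper-quartile scaling in OGD (0.36) and in normal culture (-0.57). For OGD over normal the median over all genes was 0.32 with the virus labelled knockdown, ranging from -0.17 to 0.75, and -0.25 with the control virus, ranging from -0.34 to 0.06. Rescaling FPKM gave 43.6% higher and 11.9% lower with the virus labelled knockdown, and upper-quartile scaling gave 23.1% higher and 31.4% lower. With the control virus, rescaling FPKM gave 10.0% higher and 26.6% lower, and upper-quartile scaling gave 18.9% higher and 16.7% lower.

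The cell identity was checked on marker lists. Of 10 neuron markers 5 to 7 were at 0, with Rbfox3, Snap25, Nefl, Nefm and Gap43 at 0 in all 4 libraries, and the list summed to 21.8 FPKM in the labelled-knockdown OGD library, 20.9 in the control OGD library, 61.7 in the labelled-knockdown normal library and 89.2 in the control normal library. The sums came almost wholly from Tubb3, a neuronal tubulin gene, and Eno2, a neuronal enolase gene. Tubb3 was at 7.84 FPKM in the labelled-knockdown OGD library, 7.17 in the control OGD library, 37.8 in the labelled-knockdown normal library and 40.6 in the control normal library. Eno2 was at 12.7 FPKM in the labelled-knockdown OGD library, 13.3 in the control OGD library, 23.6 in the labelled-knockdown normal library and 47.5 in the control normal library, so both were lower in the OGD libraries. The 6 fibroblast markers summed to 361 FPKM in the labelled-knockdown OGD library, 254 in the control OGD library, 494 in the labelled-knockdown normal library and 421 in the control normal library, with Col1a1 giving most of it and Lum at 0 throughout. The 7 astrocyte markers, with Aqp4 at 0 throughout, summed to 31.6 FPKM in the labelled-knockdown OGD library, 8 in the control OGD library, 6.58 in the labelled-knockdown normal library and 13.5 in the control normal library. Of these 7, Gja1 and Slc1a3 were the only 2 that averaged 1 FPKM or more. Their log2 ratios for labelled knockdown over control were 1.96 and 1.01 in OGD and -0.96 and -0.55 in normal culture. These are the signs of the 3 importers among the members, and they were not confined to astrocyte markers. Of the 4 fibroblast markers averaging 1 FPKM or more, Pdgfra was at 1.38 in OGD and -1.77 in normal culture. Dcn (0.18 and -0.70) and Col1a2 (0.13 and -0.02) had these signs too, and Col1a1 (0.51 and 0.28) did not. Gja1 (3105 nt) and Slc1a3 (2418 to 2604 nt) are near Slc39a14 and Slc39a6 in length, whose length classes had those signs too. The 6 oligodendrocyte markers, with Olig2 at 0 throughout, summed to 3.83 FPKM in the labelled-knockdown OGD library, 4.13 in the control OGD library, 19.3 in the labelled-knockdown normal library and 31.2 in the control normal library, nearly all in normal culture from Cnp. The 6 microglia markers summed to 1.6 to 2.64 FPKM, with Ptprc and P2ry12 at 0. In bulk RNA, fewer cells of a type and less RNA per cell cannot be told apart. The part of these marker levels in the member results was not tested.

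**Figure D5:**
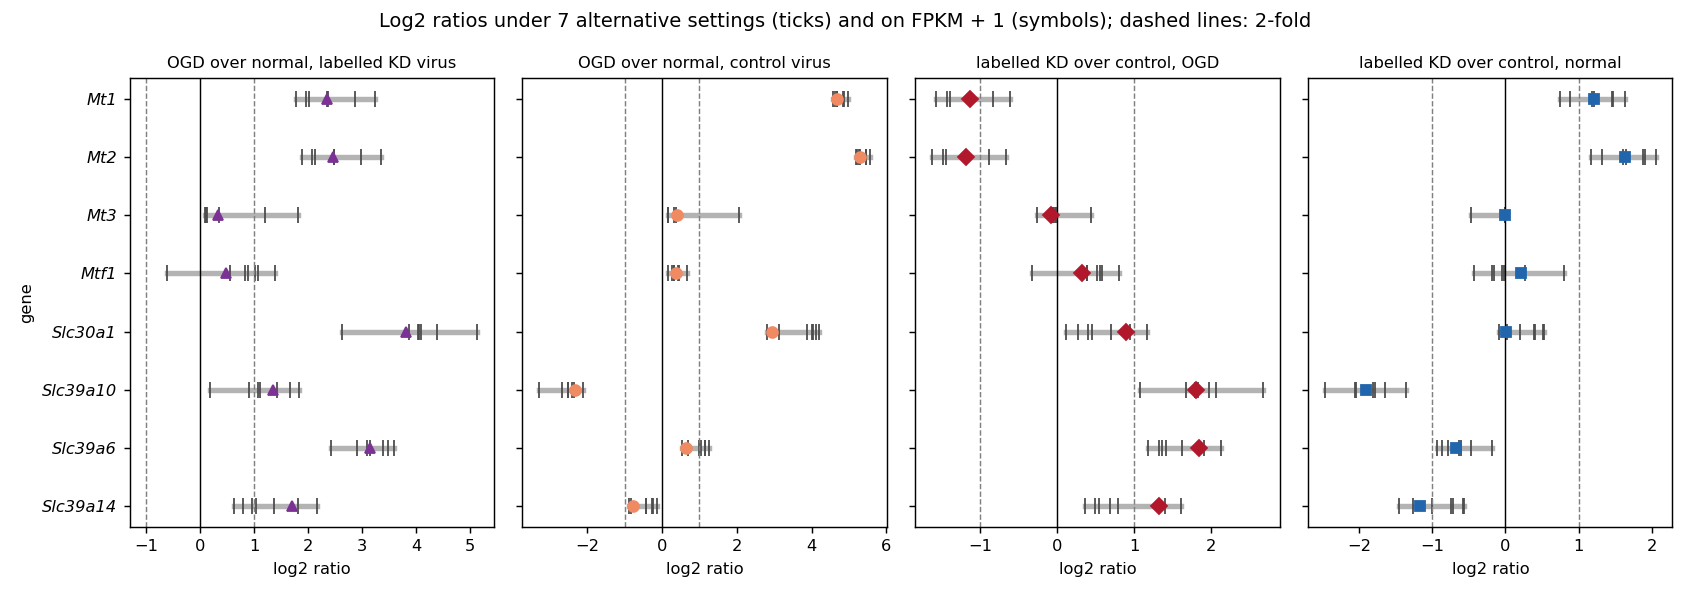
Log2 ratio of the 8 members in the 4 comparisons of 2 libraries, as reported on FPKM + 1 (symbols) and under 7 alternative scalings, pseudocounts or trend removals (ticks, with a grey bar over their range; dashed lines, 2-fold). Every member past 2-fold as reported keeps its side of 0 under the 7 alternatives, while Mtf1, within 2-fold, lies on both sides of 0 in labelled knockdown over control.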

How the data were processed

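Total RNA of HT22 cells was sequenced in 4 libraries, 1 per group. TopHat2 and the mm10 build are named in the submitters' processing notes. Versions, annotation release, counting tool and any use of strand were not given in the sources used. Expected count, FPKM, TPM, length and effective length per gene were deposited by the authors, per the file headers. The expected counts, as deposited, held no fractions. FPKM as deposited matched count over effective length and library total within 1% for 100% of values above 0.5. The TPM deposited by the authors was not used. The comparison tables deposited by the authors give p-values, raw and adjusted, beside a log2 fold change and a log2 mean CPM; 4 per-library columns in them were not used. Effective lengths entered the FPKM folds and the intervals of folds and levels. Lengths entered only as descriptions and in the trend removal.

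Log2 ratios used FPKM + 1 on the 12256 genes averaging 1 FPKM or more, which understates changes of low genes; 2-fold or more was counted. Folds carry exact conditional binomial 95% intervals and levels Poisson intervals from expected counts, which cover counting error only, since PCR reads without molecular identifiers are not independent molecules. With 1 library per group no test or p-value was computed. Symbols were matched for 46488 of 47069 identifiers. The members and lists were chosen with earlier results of these data known. Named genes are all 8 members, up to 4 further genes per list and comparison with the largest ratio, the 8 nearest to Mt1 and Mt2 and the 5 nearest to Slc30a1; the other transporters named (Slc39a7, Slc39a13, Slc30a3, Slc30a8 and Slc39a12) and the single genes named from the cell type marker lists were chosen after their values were seen. Alternatives were CPM, TMM (edgeR 4.0.16), median of ratios (DESeq2 1.42.0), upper quartile, FPKM rescaled to equal sums, a pseudocount of 0.1, removal of the median over 20 length classes and other filters, in Python 3.11.15 and R 4.3.3. The ratio script was tested on simulated data. Sequences came from RefSeq, with 6 of 8 members matched.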

Additional observations from a re-analysis of the deposited data

Results flagged for a closer look

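Mt1, Mt2, Slc39a10, Slc39a6 and Slc39a14 are listed because the ratio of the labelled knockdown over its control lay on opposite sides of 1 in the 2 culture conditions, with counting intervals that did not hold 1 in either. For Slc39a6 in normal culture, the log2 ratio of -0.68 was -0.18 after removal of the length trend. The difference of the log2 ratios, OGD minus normal, was -2.34 for Mt1, -2.82 for Mt2, 3.70 for Slc39a10, 2.51 for Slc39a6 and 2.50 for Slc39a14. The difference was not tested, since each group holds 1 library. Under 7 alternatives the difference ran from -3.20 to -1.33 for Mt1, -3.68 to -1.81 for Mt2, 2.34 to 5.14 for Slc39a10, 1.51 to 3.05 for Slc39a6 and 0.93 to 3.06 for Slc39a14. The values nearest 0 were those after removal of the length trend, and for Slc39a14 that with upper quartile. Over all genes compared, 37.4% were past 2-fold upward and 12.7% downward in the same difference, 15.1% and 26.5% with upper quartile, 21.8% and 20.8% with median of ratios, and 53.4% and 5.28% with FPKM rescaled to equal sums.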

How the results depend on the processing

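All 24 pairs of member and comparison past 2-fold, the difference between virus ratios included, kept their direction under the 7 alternatives that rescale or detrend, and 16 stayed past 2-fold under all of them. The members past 2-fold numbered 2 after removal of the length trend, for labelled knockdown over control in OGD (2 higher and 0 lower, 5 as reported) and 2 in normal culture (1 higher and 1 lower, 4 as reported). Over all genes that setting gave 7.54% higher and 1.75% lower in OGD, and 4.05% higher and 6.35% lower in normal culture. The zinc transporter family genes past 2-fold for labelled knockdown over control in OGD were 4 as reported and 8 with FPKM rescaled to equal sums, and in normal culture 3 as reported and 1 with TMM, 1 with median of ratios, 1 with upper quartile and 1 after trend removal. All-gene shares in OGD were 16.2% higher and 2.28% lower as reported, and 25.3% and 0.808% with FPKM rescaled. In normal culture they were 4.67% and 13.9% as reported and 7.95% and 7.69% with TMM. Median of ratios gave 8.45% and 7.20% there, and upper quartile 11.6% and 4.77%. For OGD over normal with the virus labelled knockdown, the family count was 10 of 16 as reported, 9 higher and 1 lower. After trend removal it was 6, with 4 higher and 2 lower. Over all genes, 33.4% were higher and 20.9% lower as reported, and 21.5% and 20.8% after trend removal. With the control virus the family count was 3 as reported, 1 higher and 2 lower. It was 5 both with upper quartile and after trend removal, each with 3 higher and 2 lower. All-gene shares there were 11.6% higher and 24.3% lower as reported, 18.9% and 16.7% with upper quartile, and 17.1% and 17.1% after trend removal. The direction of Mtf1, within 2-fold as reported, turned in labelled knockdown over control in OGD (-0.32 after trend removal) and in normal culture (-0.43 with CPM, 0.80 after trend removal), and for OGD over normal with the virus labelled knockdown (-0.61 after trend removal). In these cases the cause was not tested. Leaving out a library leaves a group empty. No paired analysis was possible because the groups share only 1 replicate number. Depth limits Mt3, with at most 3 counts, and Slc30a1 in normal culture, with 54 counts in the labelled-knockdown library and 49 in the control library.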
